A study of Rattus norvegicus with 24 samples.

Results

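The response of the hippocampus to corticosterone was measured by RNA-seq in male Sprague-Dawley rats that had undergone training. The 11 libraries are those whose titles give training together with corticosterone (6 libraries, samples 3, 8, 18, 28, 33 and 40) or with vehicle (5 libraries, samples 5, 10, 20, 25 and 35), out of 24 in the series. The other 13 come from rats without training, 6 with corticosterone and 7 with vehicle, and they entered the model to estimate the spread and to set the response in trained rats beside that in untrained rats. All animals share the strain, the sex and the tissue, which was dissected, snap-frozen hippocampus. The sources used here do not give the training task, the dose, the interval before sampling or the age, and the labels do not say that each numbered sample is a separate rat. The p-values therefore measure the spread between these samples, which may be technical.

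Corticosterone is the main glucocorticoid of the rat. It enters cells and binds the mineralocorticoid and glucocorticoid receptors, which are both abundant in the hippocampus and which act as transcription factors once the hormone is bound. The glucocorticoid receptor can raise transcription by binding DNA at response elements and can lower it at other genes. Glucocorticoids released around a learning event are known to strengthen the storage of memory, and the series combines training or no training with corticosterone or vehicle.

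The count table gives Ensembl rat gene identifiers without names, and 0 of its 32883 identifiers matched the reference tables of gene names and promoters. Genes are therefore given by identifier or by their rank in the test, with no statement of function, and the markers that would check the hippocampal label or reveal neighbouring tissue could not be looked up. In bulk tissue, fewer cells of a type and less RNA per cell cannot be told apart.

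The libraries varied in depth and along a component that crossed the groups. Between 15756141 and 16765088 reads per library fell in genes with corticosterone, and between 13760331 and 16239656 with vehicle. The first principal component of the 11 libraries carried 39.1% of the variance of log2 expression, and it placed samples 8, 33 and 40 (corticosterone) and sample 5 (vehicle) at 21.14 to 35.86, while the other 7 lay between -31.27 and -2.00. The gene with the largest loading on it was at 2070, 4230 and 4670 CPM (read counts scaled to the size of the library and not to gene length) in samples 8, 33 and 40, and at 9.57, 458 and 16.7 CPM in samples 3, 18 and 28. With vehicle it was at 1750 CPM in sample 5 and at 8.42 to 33.5 CPM in the other vehicle libraries. The fitted difference of 2.39 (log2, SE 1.70) did not pass the test (adjusted p = 0.818 in edgeR), and the groups overlapped.

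Sample 40 also differs from its group in its number. For 22 of the 24 samples the number gives the same remainder within a group when divided by 5, and samples 40 and 41 (untrained vehicle) depart from this. The remainder of sample 40 is 0, which the trained vehicle samples share, and the count table places the column of sample 41 directly after the trained vehicle columns. Both were kept in the groups of their labels. A score over the genes called in untrained rats, described below, was 0.49 in sample 40. The trained groups spanned 0.38 to 0.73 with corticosterone and -0.10 to 0.05 with vehicle. Untrained corticosterone libraries spanned 0.40 to 0.65, so the score does not tell trained from untrained samples.

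The first question was which transcripts differed between corticosterone and vehicle in trained rats. With the threshold at an adjusted p of 0.05, 24 of 14838 genes tested were higher with corticosterone (edgeR, 0.162% of the genes tested) and 0 were lower (0%). The median log2 fold change of the 24 was 0.61, against 0.00 over all genes tested. By size, 5 of the 24 rose 2-fold or more, 8 rose 1.5-fold to 2-fold, and the remaining 11 stayed under 1.5-fold. Mean levels of the 24 genes ran from 1.30 to 158.5 CPM. At an unadjusted p under 0.05, 1053 genes (7.1%) differed, 549 higher and 504 lower. DESeq2 called 60 genes, which include all 24, and without vehicle sample 10 the edgeR test called 14, of which 13 are among the 24. Fitting only the 11 trained libraries gave 13 calls, 12 of them among the 24. With runs of 5 consecutive sample numbers as a block, which sets neighbouring numbers of different groups together, 10 genes passed, those of ranks 1 to 9 and 23. The labels do not say that neighbouring numbers share a litter, batch or day.

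**Figure D1:**
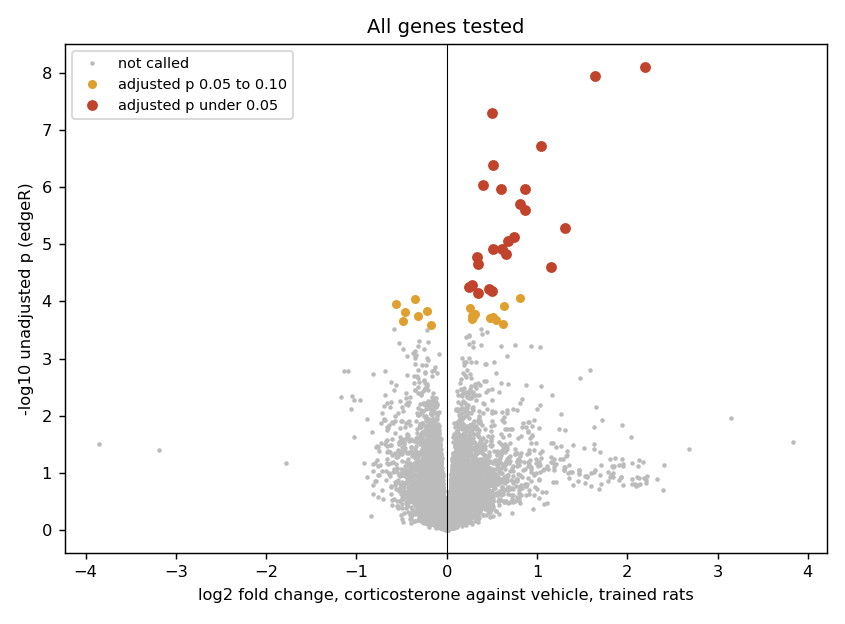
Each point is 1 of the 14838 genes tested, with the log2 fold change of corticosterone against vehicle in trained rats on the x axis and minus log10 of the unadjusted edgeR p on the y axis. The 24 called genes (red) all lie to the right of 0, whereas the 18 genes with an adjusted p from 0.05 to 0.10 (orange) lie on both sides, 11 higher and 7 lower.

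ENSRNOG00000017198 had the smallest p. Its level with corticosterone was 7.66, 3.06, 5.76, 9.15, 5.28 and 4.44 CPM in samples 3, 8, 18, 28, 33 and 40, and with vehicle it was 0.927, 0.944, 1.30, 1.26 and 1.91 CPM in samples 5, 10, 20, 25 and 35. The lowest corticosterone library, sample 8, was above the highest vehicle library, sample 35. The mean was 5.89 ± 2.20 CPM with corticosterone (SD, n = 6) and 1.27 ± 0.400 CPM with vehicle (SD, n = 5), a 4.58-fold rise (log2 fold change 2.20, SE 0.25; adjusted p = 8.18e-05 in edgeR). It rests on 13 to 150 reads per library.

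ENSRNOG00000025121 was at 3.89, 5.32, 5.76, 9.76, 6.02 and 4.99 CPM with corticosterone in the same order of samples, and at 1.78, 2.18, 2.17, 1.77 and 1.67 CPM with vehicle. The vehicle libraries lay close together and sample 28 stood above the other corticosterone libraries, with no overlap of the groups. The rise was 3.11-fold (log2 fold change 1.64, SE 0.19; adjusted p = 8.18e-05 in edgeR), on 25 to 160 reads per library. Both genes kept an adjusted p of 0.0109 or less under each of 25 alternative settings, and without sample 28 the log2 fold changes were 2.02 and 1.44.

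**Figure D2:**
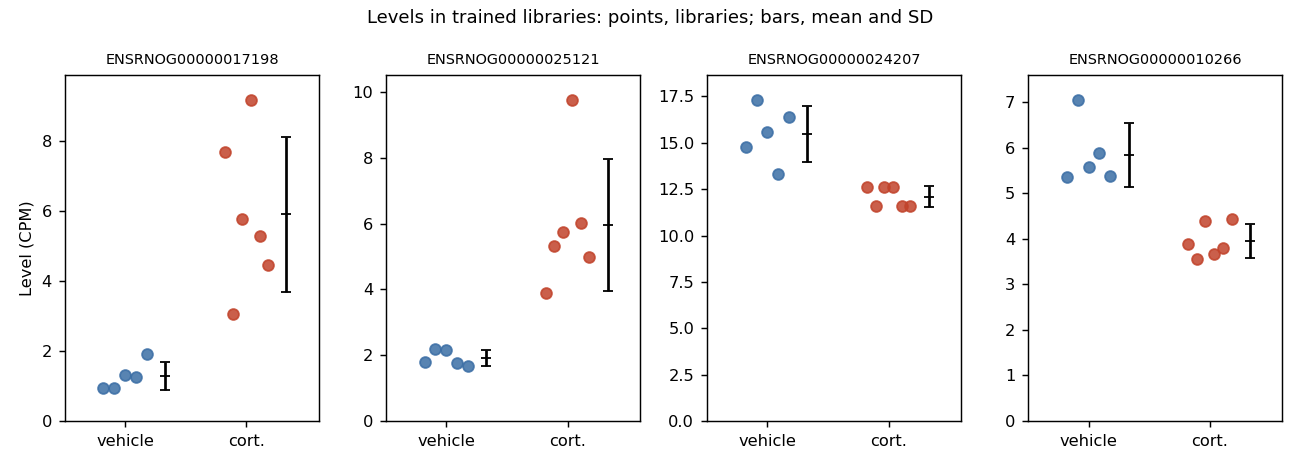
Levels in CPM of the 2 higher and the 2 lower genes with the smallest p in the trained libraries, with 1 point per library and bars for the mean and SD of 5 vehicle and 6 corticosterone libraries. In each panel the groups do not overlap, but the 2 genes on the right, which were lower with corticosterone, did not pass the adjusted threshold.

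The other called genes combined a range of levels with mostly smaller changes. Rank 4 in the test belonged to a gene that rose 2.06-fold, from 90.4, 68.5, 105, 123 and 113 CPM in vehicle samples 5, 10, 20, 25 and 35 to 156, 209, 201, 268, 212 and 196 CPM in corticosterone samples 3, 8, 18, 28, 33 and 40. Its log2 fold change was 1.05 (SE 0.14; adjusted p = 0.000703 in edgeR), and it had 944 to 4401 reads per library. For the gene of rank 11 the libraries had a lowest, median and highest level of 12.5, 16.5 and 19.3 CPM with corticosterone and of 5.14, 5.86 and 8.84 CPM with vehicle. This was a 2.48-fold rise (log2 fold change 1.31, SE 0.22; adjusted p = 0.00692 in edgeR). Among the called genes, that of rank 19 was scarce, at 1.47 to 2.13 CPM with corticosterone and 0.581 to 1.09 CPM with vehicle (8 to 35 reads per library), and its log2 fold change of 1.15 had an SE of 0.22 (edgeR adjusted p = 0.0193).

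Genes with tight replicates were called at much smaller changes. The gene of rank 3 stood at 46.8, 50.5, 48.6, 58.5, 49.7 and 52.8 CPM with corticosterone and at 35.1, 36.5, 32.5, 36.0 and 39.9 CPM with vehicle, in the same order of samples. Every corticosterone library was above every vehicle library, and the 1.42-fold rise (log2 fold change 0.51, SE 0.06) had the third smallest p (edgeR adjusted p = 0.000241). A further gene, of rank 6, rose 1.32-fold, with corticosterone libraries between 63.9 and 71.2 CPM and vehicle libraries between 46.0 and 53.2 CPM (log2 fold change 0.40, SE 0.06; adjusted p = 0.00202 in edgeR). The smallest change called was that of the gene of rank 21, with a log2 fold change of 0.25 (SE 0.05; adjusted p = 0.0400 in edgeR). This was the only called gene whose groups overlapped, since vehicle sample 5 at 55.7 CPM was above corticosterone samples 18 (54.9 CPM) and 40 (54.8 CPM).

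The 8 genes of ranks 7, 8, 9, 10, 12, 13, 15 and 16 rose 1.52-fold to 1.83-fold with no overlap of the groups. The gene of rank 9, for example, lay between 23.1 and 39.8 CPM with corticosterone and between 14.3 and 17.6 CPM with vehicle (log2 fold change 0.81, SE 0.13; adjusted p = 0.00326 in edgeR). In the gene of rank 16 the vehicle libraries lay closest together of the 24 genes on the log2 scale, at 18.9 to 20.5 CPM, against 25.3 to 39.8 CPM with corticosterone (log2 fold change 0.66, SE 0.12; adjusted p = 0.0135 in edgeR). In all, 23 of the 24 called genes had no overlap between the groups, against 80 of all 14838 genes tested in this direction (0.539%). The 24 were chosen by p on the same libraries, which favours such separation.

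**Figure D3:**
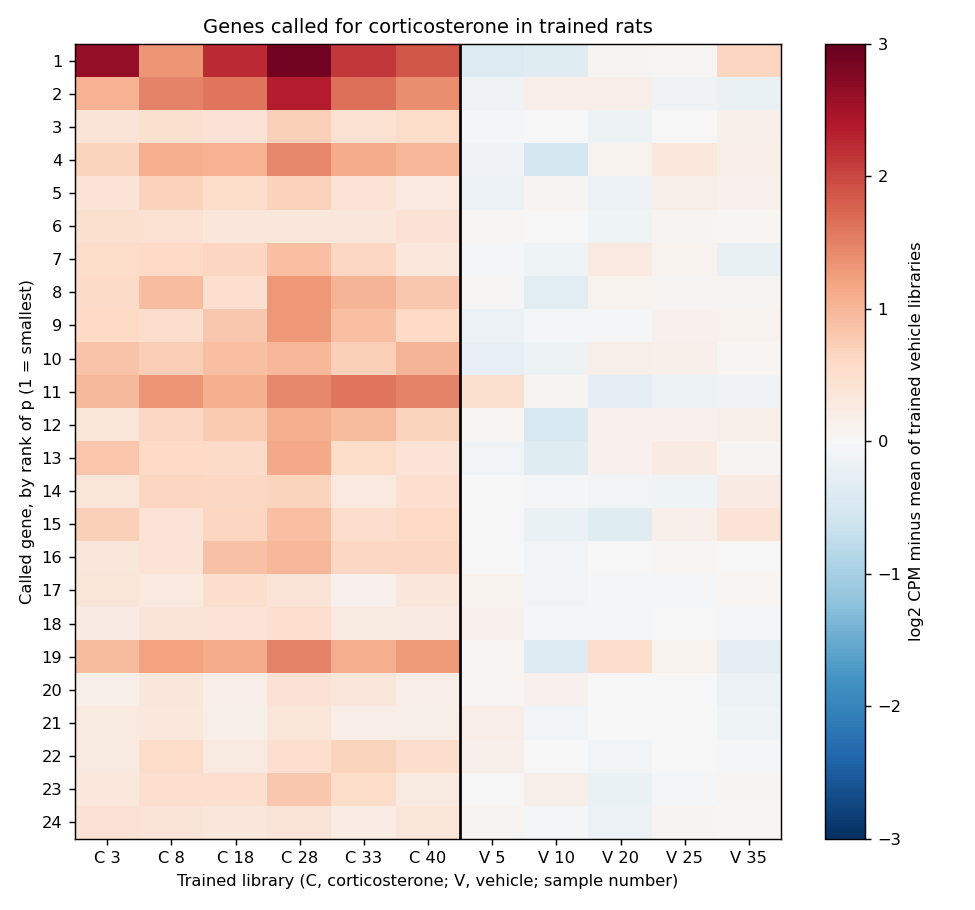
Rows are the 24 called genes in order of p and columns the 11 trained libraries by sample number, with corticosterone (C) left and vehicle (V) right of the line. Colour gives log2 CPM minus the mean of the trained vehicle libraries. Sample 28 had the highest level of the corticosterone libraries in 17 of the 24 genes.

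The size of the response differed between corticosterone libraries. Sample 28 was the highest of the 6 in 17 of the 24 called genes and the lowest in 0, while it was the highest for 15.9% of all genes tested. Sample 3 was the lowest in 10 of the 24, while it was the lowest for 23.8% of all genes tested. Because the 24 genes were chosen on these libraries, the same was read from the 53 genes called in untrained rats. The untrained groups share no library with the trained groups, but the trained libraries entered the same model and its estimate of the spread. Of the 24 genes, 21 are among the 53, so the 53 are not a separate set. A response score was taken as the mean over the 53 genes of log2 CPM minus the trained vehicle mean, signed by the direction in untrained rats. It was 0.38, 0.49, 0.49, 0.73, 0.48 and 0.49 in samples 3, 8, 18, 28, 33 and 40.

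In the vehicle libraries the score was -0.01, -0.10, 0.04, 0.05 and 0.02 in samples 5, 10, 20, 25 and 35. All corticosterone libraries were far above all vehicle libraries, sample 40 lay in the middle of its group and sample 28 stood apart on the high side. Sample 28 was the highest corticosterone library for 35 of the 48 genes that rose in untrained rats. It also had the most reads of the 11 libraries (16765088) and the smallest scaling factor of the 11 (0.9785). With every library thinned to 13760331 reads its score was 0.73, and with upper-quartile scaling it was 0.71. Random thinning keeps the expected CPM of a gene, so the score could change little by it whether or not depth mattered. With the 33 genes called in untrained rats when sample 41 was left out, the score was 0.89 in sample 28, 0.47 to 0.62 in the other corticosterone libraries and -0.11 to 0.04 in the vehicle libraries.

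**Figure D4:**
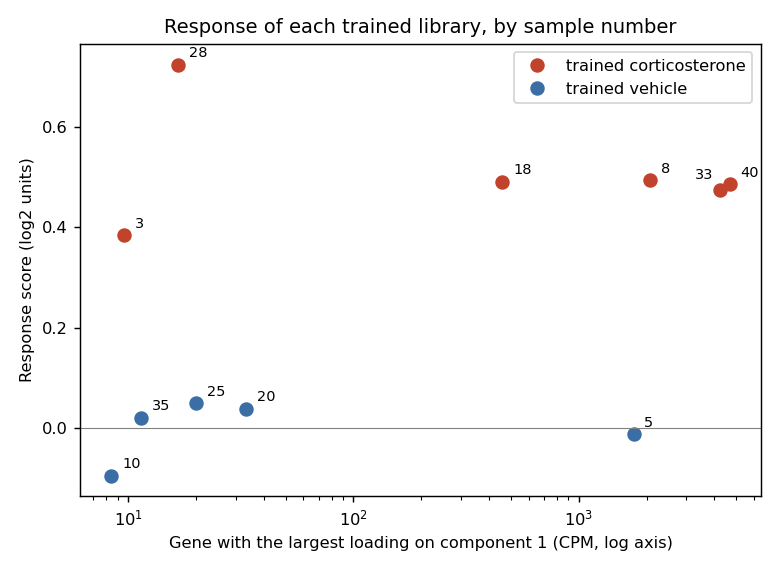
The response score of each trained library (y axis, log2 units, vehicle mean set to 0) is plotted against the level of the gene with the largest loading on the first component (x axis, CPM, log scale), with sample numbers beside the points. The corticosterone libraries lie between 0.38 and 0.73 and the vehicle libraries between -0.10 and 0.05, at low and at high levels of that gene. Sample 5, at 1750 CPM, is the only vehicle library at a high level, and the others lie at 8.42 to 33.5 CPM.

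The called genes were also compared with the first component taken into account. With the level of its leading gene as a covariate, 27 genes were called, 21 of them among the 24, and all 24 remained higher with corticosterone (log2 fold changes 0.26 to 2.30, median 0.65). When samples 5, 8, 33 and 40 were left out, which leaves 3 corticosterone and 4 vehicle libraries, all 24 were again higher (median log2 fold change 0.70) and 11 genes were called, 10 of them among the 24. The 24 were chosen on these libraries, and 23 of them had no overlap between the groups. Leaving libraries out could therefore hardly reverse their sign, and the choice favours a stable sign in the covariate fit too.

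A larger set of genes showed big fitted changes without passing the test. These were 127 genes at least 2-fold higher with corticosterone (0.856% of the genes tested), with a median log2 fold change of 1.47, and 10 genes at least 2-fold lower (0.0674%). In 103 of the 127 (81.1%), samples 8, 33 and 40 were the 3 highest corticosterone libraries, as they were for 10.8% of all genes tested. With the leading gene of the first component as a covariate, the median log2 fold change of the 127 was 0.16, and that of the 10 lower genes was -1.17 against -1.11 without it. The 127 were chosen on the same libraries by a large change without a small p. Such a choice favours genes high in only some corticosterone libraries. The leading gene itself meets this rule (log2 fold change 2.39, adjusted p = 0.818 in edgeR). The cause of these changes was not tested.

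Lower expression with corticosterone was examined next. No gene passed in this direction (edgeR, 0 of 14838, with 504 at an unadjusted p under 0.05; limma-voom also called 0, and DESeq2 called 14, 0.0956% of the genes for which it gave an adjusted p). ENSRNOG00000024207, the lower gene with the smallest p, was at 12.6, 11.6, 12.6, 12.6, 11.6 and 11.6 CPM in corticosterone samples 3, 8, 18, 28, 33 and 40 and at 14.8, 17.3, 15.6, 13.3 and 16.4 CPM in vehicle samples 5, 10, 20, 25 and 35. The corticosterone libraries lay within a narrow band below all vehicle libraries. The log2 fold change was -0.35 (SE 0.08; adjusted p = 0.0513 in edgeR, and 0.0113 to 0.536 over 25 alternative settings, 5 of which called it).

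ENSRNOG00000010266 had the second smallest p among the lower genes. It was at 3.89, 3.56, 4.38, 3.66, 3.79 and 4.44 CPM with corticosterone and at 5.35, 7.04, 5.58, 5.88 and 5.37 CPM with vehicle, again without overlap. Its log2 fold change was -0.56 (SE 0.12; adjusted p = 0.0611 in edgeR, and 0.0169 to 0.377 over 25 settings, 2 of which called it), on 57 to 97 reads per library. Over the 10 lower genes with the smallest p, log2 fold changes ran from -0.59 to -0.17 and edgeR adjusted p from 0.0513 to 0.144. Of these 10, 7 had no overlap between the groups, against 75 of all 14838 genes tested in this direction (0.505%). The choice by small p on the same libraries favours such separation.

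Just outside the threshold stood 18 genes with an adjusted p between 0.05 and 0.10, 11 higher (0.0741%) and 7 lower (0.0472%). The nearest, a higher gene with an adjusted p of 0.0512 (edgeR), was 0.81 higher on the log2 scale (SE 0.17). Its mean with corticosterone was 35.97 ± 11.96 CPM (SD, n = 6) against 20.49 ± 2.89 CPM with vehicle (SD, n = 5), and the groups overlapped. By comparison, the last called gene, of rank 24, was 0.35 higher on the log2 scale (SE 0.07; adjusted p = 0.0432 in edgeR) and was at 21.7 ± 1.01 CPM with corticosterone (SD, n = 6) and 17.04 ± 1.19 CPM with vehicle (SD, n = 5).

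Counting genes by the separation of the libraries gave a more even split than the test. Every corticosterone library was above every vehicle library for 80 genes (0.539%) and below for 75 genes (0.505%). Some genes separate in either direction without any effect, and how many was not computed. Of the 80, 23 were called, and their median log2 fold change was 0.35, with 21 at 1.5-fold or more. None (0) of the 75 was called, their median log2 fold change was -0.25 and 6 reached 1.5-fold. The separation was read in the trained libraries alone, but the untrained libraries shared the scaling and the estimate of the spread behind the calls. In untrained rats, 47 of the 57 higher genes that were not called had the same sign (82.5%). So did 58 of the 75 lower genes (77.3%). Over all genes tested the share was 53.7% for those higher and 50.9% for those lower in trained rats. Of the 57, 10 were called in untrained rats, and 25 had the same sign there at an unadjusted p under 0.05 (edgeR). These counts were 3 and 15 of the 75, and 53 and 646 of all 14838 genes. The median log2 fold changes in untrained rats were 0.08 for the 57 and -0.04 for the 75.

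The response in trained rats was then set beside that in untrained rats. All 24 called genes were also higher in untrained rats, and 21 of them passed there (edgeR), where 48 genes were called higher (0.323%) and 5 lower (0.0337%). Without sample 41, 33 genes were called in untrained rats in place of 53. No other untrained library was left out, so the drop cannot be called particular to sample 41. ENSRNOG00000017198 rose to 5.44 ± 0.988 CPM (SD, n = 6) from 1.05 ± 0.302 CPM (SD, n = 7) in untrained rats, and the trained response minus the untrained response was -0.17 on the log2 scale (SE 0.35). For ENSRNOG00000025121 the difference was 0.00 (SE 0.26). Of the genes called in untrained rats, 32 were not called in trained rats (edgeR), and all 32 had the same sign in both. Those that rose had a smaller log2 fold change in trained rats, with differences from -0.68 to -0.01. The choice by the untrained test favours this. Among the 32, the smallest unadjusted p of the difference was 0.0248 (adjusted p = 0.962 in edgeR).

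The 3 genes called only in the trained contrast, those of ranks 19, 21 and 23, had log2 fold changes of 1.15, 0.25 and 0.50 in trained and 0.83, 0.19 and 0.40 in untrained rats, where their adjusted p was 0.0682, 0.0806 and 0.0682 (edgeR). The tests of the difference between the states gave unadjusted p of 0.283, 0.416 and 0.478 in edgeR, and none of these passed (the smallest adjusted p of the 3 was 0.962). Over the 24 genes the largest difference was 0.33 on the log2 scale, the smallest unadjusted p was 0.123 and the smallest adjusted p was 0.962 (edgeR). For 20 of the 24 genes the 95% interval of this difference excluded 1.5-fold in both directions, and for all 24 it excluded 2-fold. Differences smaller than the intervals were not detectable with these libraries.

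**Figure D5:**
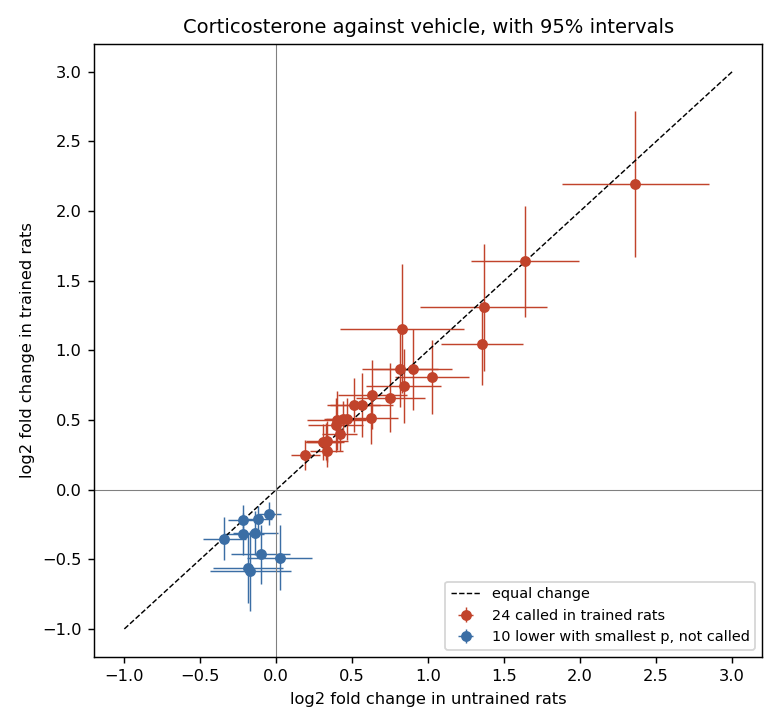
Log2 fold changes of corticosterone against vehicle in untrained (x axis) and trained rats (y axis) for the 24 genes called in trained rats (red) and the 10 lower genes with the smallest p there (blue), with 95% intervals. The red points follow the dashed line of equal change, and the blue points lie lower in trained than in untrained rats for 9 of the 10, as the choice on trained rats favours.

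Some of the lower genes had little change in untrained rats. The choice by small p in trained rats favours such a gap and a small unadjusted p for it. ENSRNOG00000010266 had a log2 fold change of -0.19 there (adjusted p = 0.819), and the difference between states was -0.38 (SE 0.17, unadjusted p = 0.0329, edgeR adjusted p = 0.962). The lower gene of rank 6 was at 6.56 ± 0.932 CPM with corticosterone (SD, n = 6) and 9.20 ± 0.334 CPM with vehicle (SD, n = 5) in trained rats, and at 7.76 ± 1.10 CPM (SD, n = 6) and 7.64 ± 1.15 CPM (SD, n = 7) in untrained rats. Its difference between states was -0.51 (SE 0.15, unadjusted p = 0.00274), which did not pass over all genes (edgeR adjusted p = 0.962). By contrast, ENSRNOG00000024207 had a log2 fold change of -0.34 in untrained rats (edgeR adjusted p = 0.0218) and a difference between states of -0.01 (SE 0.10).

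The 5 genes called lower in untrained rats were all on the lower side in trained rats, with log2 fold changes of -0.35, -0.14, -0.32, -0.22 and -0.20 and adjusted p of 0.0513, 0.689, 0.256, 0.104 and 0.144 (edgeR). Among them, 3 had no overlap between the trained groups, against 0.505% of all genes tested in this direction. Across all genes, 0 of 14838 passed the test of the difference between the states (edgeR, smallest adjusted p = 0.378, 634, or 4.27%, at an unadjusted p under 0.05). DESeq2 and limma-voom also called 0, with 665 and 655 genes at an unadjusted p under 0.05.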

How the data were processed

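The authors deposited 1 table of raw read counts per gene for 24 libraries. The submitters' processing notes name build rn6, HTSeq 0.6.1, STAR 2.7.0b, MultiQC and FastQC, with no order or role, and per the labels' protocols the libraries were stranded and paired-end. The sources used here name neither the annotation nor the strand setting of the counting, which leaves near-identical copies, overlapping and antisense genes uncertain. Summary lines of the counter (5) were left out, and 59.8% to 62.6% of each column lay in genes.

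Libraries were grouped by title. Genes were filtered with filterByExpr (14838 of 32883 kept), scaled with TMM factors and tested with the quasi-likelihood test of edgeR 4.0.16 (R 4.3.3) in 1 model of 4 group means, with Benjamini-Hochberg adjustment over all genes tested and a threshold of 0.05. SE are Wald errors of the fit. The median half-width of a gene's 95% interval in trained rats was 0.17 (log2). Scores and components used log2 CPM with a prior count of 2. Alternatives used DESeq2 1.42.0, limma 3.58.1 and sva 3.50.0. Fits were tested on simulated data. Within a trained group, pairs of libraries differed beyond sampling noise (chi-square per degree of freedom 4.65 to 28.4).

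Named genes were to be those called whose trained mean reached 1 CPM (up to 30 in each direction, by p), the 10 lower genes of that level with the smallest p where fewer than 10 were called lower, members of 24 gene and marker lists, and, where matched, Fkbp5, Sgk1, Tsc22d3, Per1, Nr3c1, Nr3c2, Fos, Arc, Bdnf and Ttr. Because 0 identifiers matched the 47357 genes of the GRCr8 name table, the lists, the choroid plexus covariate and the promoter motifs could not be used, and 2 higher and 2 lower identifiers are printed. The libraries, lists and tests were chosen with earlier results of these data known.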

Additional observations from a re-analysis of the deposited data

Results flagged for a closer look

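In 76 checks, each of 1 measure in the 6 corticosterone or the 5 vehicle libraries of trained rats, 9 had a library whose gap to the nearest other library exceeded Dixon's 95% critical value for the range of the group. Chance gives this in about 1 of 20 groups, and the measures share libraries. The response score of corticosterone sample 28 was 0.725, against 0.384 to 0.495 in the other 5. Sample 28 was also apart for ENSRNOG00000025121, the called gene of rank 2 (9.76 CPM against 3.89 to 6.02 CPM), and for the lower gene of rank 7 (37.0 CPM against 39.8 to 41.2 CPM), where it was the lowest. Corticosterone sample 18 was at 40.3 CPM for the lower gene of rank 10, against 27.6 to 31.5 CPM.

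Vehicle sample 10 was the lowest for the called gene of rank 8 (5.15 CPM against 6.63 to 6.95 CPM) and for that of rank 12 (9.29 CPM against 13.3 to 14.4 CPM). Vehicle sample 5 was at 21.3 CPM for the called gene of rank 18, against 18.9 to 19.3 CPM, and at 1750 CPM for the gene with the largest loading on the first component, against 8.42 to 33.5 CPM. Vehicle sample 25 was at 40.8 CPM for the lower gene of rank 7, against 45.3 to 46.8 CPM.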

How the results depend on the processing

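None (0) of the 24 called and 10 lower genes changed sign under the 25 alternatives. These genes were chosen by small p on the same libraries, which favours a stable sign. Of the 24 called genes, 5 (ranks 1, 2, 3, 4 and 9) passed under each alternative, while the gene of rank 24 passed under 3. For corticosterone in trained rats, 60 genes were called with DESeq2, 13 when only the 11 trained libraries were fitted, 10 when runs of 5 consecutive numbers formed a block and 11 without samples 5, 8, 33 and 40. Leaving out 1 trained library gave 14 (without vehicle sample 10) to 26 (without corticosterone sample 3). The number called lower, 0 in the reported fit, was 14 with DESeq2, 1 each with a filter of 1 CPM in 5 libraries, upper-quartile factors, sample 41 left out, the sample number as a covariate, or thinning to 1 depth, 2 without samples 40 and 41, and 0 to 2 when 1 trained library was left out. In untrained rats, 53 became 89 with DESeq2, 33 without sample 41, 34 without samples 40 and 41 and 24 with the block. Sample 41 was the only untrained library left out in any fit. The interaction gave 0 genes under each alternative run. Causes were not tested. The covariates and omissions tied to the first component, the thinning, the joint omission of samples 40 and 41 and the score without sample 41 were chosen after seeing the data. The choroid plexus covariate was not run. No 2 groups share a sample number, so samples could be matched only by neighbouring numbers, as in the block above, and the labels do not say that these mark pairs. Genes with few reads, such as that of rank 19, are limited by depth.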
